A study of Mus musculus with 6 samples.

Results

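The genes described here encode the machinery that assembles and takes apart actin filaments: the actins, the Arp2/3 complex, the WASP and WAVE proteins that switch it on, the proteins of filament turnover, capping and elongation, and the myosin II, membrane and adhesion proteins that work on the filaments. A list of 55 such genes was looked up by symbol in the array annotation. Of these, 51 had a transcript cluster (the set of probes summarised to 1 value) with a single gene symbol, and 48 passed the signal filter that 50% of the 22180 genes on the array pass. The 4 without a value were Arpc1b, Arpc3, Actr2 and Cyfip1. The gene listed as Diap1 was matched through its synonym to Diaph1. Wasf1, Pfn2 and Enah lay below the filter and were described but not tested.

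The cells were haematopoietic stem cells (HSCs) sorted from the marrow of mice at steady state, as cells without lineage markers or surface Flt3 that carry Sca1 and Kit. One group was wild type (WT) and the other Chrm1-/-, which lacks the muscarinic acetylcholine receptor type 1; the strain given for both is C57Bl/6, and each group had 3 arrays. The labels name no age, no treatment, and no cell type to which the deletion is limited. The series concerns how this receptor, acting in the nervous system, prepares HSCs to leave the marrow. The comparison asks whether HSCs from mice without the receptor differ at rest.

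Actin filaments push the cell membrane forward, pull the cell body after it and anchor it to the surfaces it crosses. The Arp2/3 complex starts a new filament as a branch on an existing one. It does so when a WASP protein or the WAVE complex, themselves controlled by the small GTPases Cdc42 and Rac, binds it. Cofilin and its partners cut old filaments and return monomers, and profilin and thymosins hold those monomers ready. In blood cells this cycle serves migration, homing and adhesion in the marrow, and loss of WASP causes an immunodeficiency.

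Many actin genes are controlled by serum response factor, whose coactivators are held back by free actin monomers, so that the supply of actin feeds back on its own genes. The binding motif of this factor, the CArG box, was searched on both strands of RefSeq promoter windows (GRCm38.p6, 250 bases before to 50 bases after each gene's start). It occurred in 4 of the 49 actin assembly genes with a window, or 8.16%. Actb, Arpc5l, Coro1b, Cyfip1, Diaph1 and Nckap1l were not searched here. Of all 27025 genes with a window it occurred in 1.81%, and of the 17491 protein-coding genes in 1.76%. These shares are a description with no test, and a match is not evidence that the factor binds. The 4 stretches are shown because they are the one sequence feature compared here across the genes. Each runs 5′ to 3′ on the gene's own strand, upstream of the start, with the CArG box in capitals.
Actg1: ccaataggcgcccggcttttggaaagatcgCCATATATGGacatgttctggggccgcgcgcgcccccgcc
Arpc4: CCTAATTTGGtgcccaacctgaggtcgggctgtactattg
Myl6: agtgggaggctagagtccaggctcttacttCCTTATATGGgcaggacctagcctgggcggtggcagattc
Vcl: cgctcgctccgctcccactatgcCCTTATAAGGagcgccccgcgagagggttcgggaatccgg
The Actg1 stretch lies at chr11:120348546-120348615 on the minus strand, with the box from 90 to 81 bases before the start. The Arpc4 stretch lies at chr6:113377863-113377902 on the plus strand, and its box, 250 to 241 bases before the start, opens the window. The Myl6 stretch lies at chr10:128493020-128493089 on the minus strand, with the box 50 to 41 bases before the start. The Vcl stretch lies at chr14:20929148-20929210 on the plus strand, with the box 227 to 218 bases before the start. Between the genotypes these 4 genes had differences of 0.02 for Actg1, -0.05 for Arpc4, -0.997 for Myl6 and -0.26 for Vcl on the log2 scale, none past the test described next.

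Values are log2 signals, on which 1 unit is a doubling, and differences are Chrm1-/- minus wild type with limma's moderated standard error (SE). Array medians lay between 6.49 and 6.57. A signal depends on the probes of its cluster, so signals are compared between arrays and not between genes. Chrm1 itself read 7.45, 7.44 and 7.67 in wild type and 8.16, 7.52 and 7.58 in Chrm1-/-, so it was not lower in the knockout arrays. The sources used here do not say which part of the gene its probes cover or which was deleted, so this checks nothing about the labels. Of 8 markers of HSCs and progenitors 7 had a value and all 7 passed the filter, with Kit at 10.90 in wild type and 10.88 in Chrm1-/-. Of the 7, 5 were lower and 2 higher in Chrm1-/-, with a median difference of -0.12. Of 50 markers of mature blood cells, stroma and endothelium 43 had a value. Of those, 21 lay below the filter and 22 passed it, where 50% of all genes pass. Among the granulocyte markers, Mpo, Ctsg, Elane and Prtn3 passed, with wild type means of 11.35, 10.55, 7.80 and 7.47. Ltf, Ngp, S100a8 and S100a9 of that list lay below the filter. Among the mast cell markers, Cpa3 and Mcpt8 passed, at 11.19 and 9.19, and Ms4a2 and Fcer1a lay below the filter. Over both marker lists limma gave 2 of 29 tested genes, or 6.9% against 2.99% of all genes tested, an unadjusted p below 0.05. They were Procr at -0.25 ± 0.10 (SE) and the macrophage gene Cd68 at -1.07 ± 0.39 (SE). Their part in any difference described here was not tested. In sorted cells measured in bulk, fewer cells of a type and less RNA per cell cannot be told apart.

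Across the whole machinery, limma called 0 of 48 tested members at an adjusted p of 0.05 and gave 0 an unadjusted p under 0.05, where it did so for 0% and 2.99% of all 11094 genes tested. Without moderation it gave 1 member, Cfl1, and 2.28% of all genes an unadjusted p under 0.05. The smallest unadjusted p among the members was 0.0657, for Brk1, and every member's adjusted p was 0.996 or more. Member differences ran from -0.997 to 0.37, with 27 genes higher in Chrm1-/-, 20 lower and 1 at 0. Their median was 0.02, beside 0.00 over all genes tested. A difference of at least 1.5-fold was seen in 2 members, Brk1 and Myl6, which is 4.17% of the members against 4.31% of all genes tested. The groups did not overlap for 3 members, or 6.25%, against 5.79% of all genes. Of those, 2 lay higher in Chrm1-/-, as did 2.81% of all genes, and 1 lower, as did 2.97%. For 5 more members the nearest values of the groups were equal. The shares past 1.5-fold and without overlap lay near the background.

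The 95% intervals describe how precisely each difference was measured on these arrays. They rest on the spread between arrays, which may be technical repeats, and each holds for 1 gene alone. They therefore set no joint bound on the difference between the genotypes. For 35 of the 48 members, or 72.9%, the whole 95% interval of the difference lay within 1.5-fold in either direction, as it did for 53.3% of all genes tested. For 43 members, or 89.6%, it lay within 2-fold, against 83.7% of all genes. The 5 members whose interval reached past 2-fold were Arpc5l, Was, Brk1, Cfl2 and Myl6, so a change of that size in them is not excluded by these arrays. If the arrays are technical repeats, the intervals of the other members do not exclude it between mice either. The median standard deviation within a group was 0.15 over the members and 0.22 over all genes tested, and the members' values ran from 0.03 for Arpc2 to 0.71 for Cfl2. The members also had high signals. At or above the 75th percentile of all genes lay 40 of the 48, beside 5549 of the 11094 genes tested. Members were not compared with genes of like signal, so the narrower intervals cannot be read as particular to them.

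**Figure D1:**
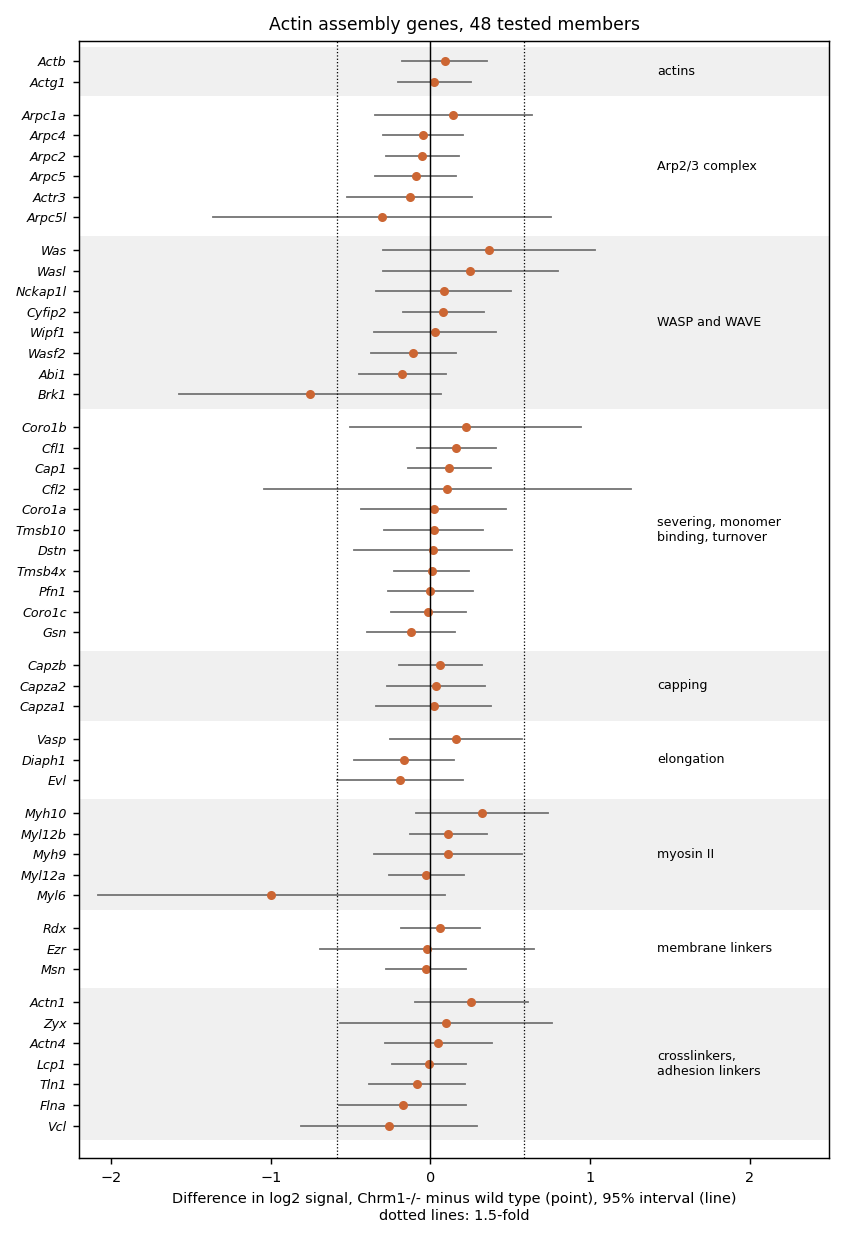
Difference in log2 signal, Chrm1-/- minus wild type, for the 48 tested actin assembly genes grouped by role; points are differences, lines 95% intervals from limma (3 arrays a group), and dotted lines mark 1.5-fold. Every interval includes 0, and the widest belong to Myl6, Cfl2 and Arpc5l.

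The 2 cytoplasmic actins read alike in both genotypes in the clusters used. Actb, which encodes beta-actin, read 8.28, 8.24 and 8.33 in wild type and 8.24, 8.46 and 8.42 in Chrm1-/-. The groups overlapped, since Chrm1-/- replicate 1 equalled the lowest wild type array, and the difference was 0.09 ± 0.11 (SE). Actg1, which encodes gamma-actin, read 11.98 on all 3 wild type arrays and 11.98, 11.98 and 12.05 in Chrm1-/-. Its difference was 0.02 ± 0.09 (SE), with a 95% interval from -0.21 to 0.25. The intervals of both actins lay within 1.5-fold. The further clusters with the symbol Actg1 alone had differences from -0.337 to 0.003, and with its clusters averaged Actg1 differed by -0.084.

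The Arp2/3 complex was measured through 6 of its 9 listed genes, of which 5 had a lower and 1 a higher mean in Chrm1-/-, with a median difference of -0.07. Arpc2, a core subunit of the complex, read 12.20, 12.21 and 12.21 in wild type and 12.14, 12.13 and 12.20 in Chrm1-/-. That is a difference of -0.05 ± 0.09 (SE), with the highest Chrm1-/- array level with the lowest wild type one. Actr3, the actin-related protein Arp3 that forms part of the seed of the new branch, read 12.04, 12.09 and 11.99 in wild type and 12.14, 11.99 and 11.60 in Chrm1-/-. Its low value was on Chrm1-/- replicate 3 alone, and the difference was -0.13 ± 0.16 (SE).

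Arpc4 and Arpc5 differed by -0.05 and -0.09 and kept within 1.5-fold over their intervals. For the alternative subunits single arrays set the difference. Arpc1a, one of a pair of interchangeable subunits, read 9.04, 8.90 and 8.95 in wild type and 8.83, 8.95 and 9.54 in Chrm1-/-. Chrm1-/- replicate 3 was the one high array; the difference was 0.14 ± 0.20 (SE), and -0.07 without that array. Arpc5l, the alternative to Arpc5, read 8.33, 7.97 and 9.70 in wild type and 8.29, 8.47 and 8.33 in Chrm1-/-. Here wild type replicate 3 stood 1 log2 unit or more above every other array; the difference was -0.30 ± 0.44 (SE), and 0.21 without it. For both genes the direction thus depended on 1 array.

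The activators of the complex held the gene of smallest p. Of 8 tested WASP and WAVE genes 5 were higher and 3 lower in Chrm1-/-, with a median of 0.05. Brk1, the smallest subunit of the WAVE complex, read 11.12, 10.04 and 10.07 in wild type and 9.44, 9.49 and 10.04 in Chrm1-/-. Wild type replicate 1 was far above the rest, and Chrm1-/- replicate 3 equalled wild type replicate 2. The difference of -0.75 ± 0.34 (SE) had an interval from -1.57 to 0.07 and an unadjusted p of 0.0657 in limma. Without wild type replicate 1 it was -0.40. Over the 15 alternatives tried, the unadjusted p in limma ran from 0.0505 to 0.172.

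The remaining measured subunits of the WAVE complex had smaller differences than Brk1. Abi1, the Abl-interacting subunit, read 9.49, 9.60 and 9.34 in wild type and 9.25, 9.31 and 9.34 in Chrm1-/-, a difference of -0.18 ± 0.11 (SE). Wasf2, the WAVE2 protein that binds Arp2/3, differed by -0.11 ± 0.11 (SE). Cyfip2, a subunit that binds Rac, differed by 0.08 ± 0.10 (SE), and Nckap1l, the blood cell form of the scaffold subunit, by 0.08 ± 0.17 (SE). The gene of a further WAVE protein, Wasf1, lay below the filter with signals from 5.20 to 5.54.

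On the WASP side, Was, which encodes the Wiskott-Aldrich syndrome protein of blood cells, read 7.96, 8.63 and 8.76 in wild type and 8.49, 8.77 and 9.19 in Chrm1-/-. The groups overlapped, and the difference of 0.37 ± 0.27 (SE) was 0.12 without the low wild type replicate 1. Wasl, its widely expressed relative N-WASP, read 7.96, 7.21 and 7.99 in wild type and 7.96, 7.99 and 7.96 in Chrm1-/-. Wild type replicate 2 alone was low, and the other 5 arrays lay within 0.03 of each other. Wipf1, the partner that stabilises WASP, differed by 0.03 ± 0.16 (SE).

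**Figure D2:**
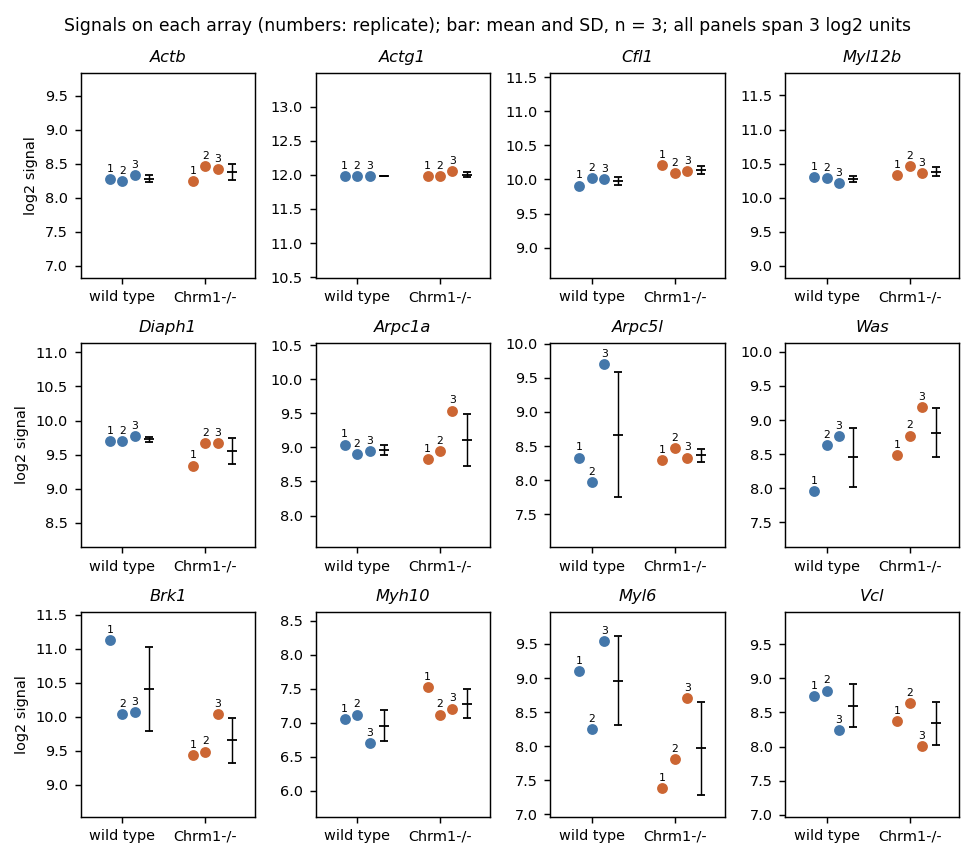
Log2 signal of 12 members on each array (points, numbered by replicate) in wild type and Chrm1-/-, with mean and SD (n = 3) beside each group; every panel spans 3 log2 units. Actb and Actg1 hardly vary, Cfl1, Myl12b and Diaph1 have groups that do not overlap by small margins, and Arpc5l and Brk1 have 1 wild type array far above the others.

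Filament turnover was the largest group, with 11 tested genes, 8 higher and 2 lower in Chrm1-/- and a median of 0.02. Cfl1, cofilin, which severs ageing filaments, read 9.91, 10.02 and 10.00 in wild type and 10.21, 10.09 and 10.12 in Chrm1-/-. All 3 Chrm1-/- arrays lay above all 3 wild type arrays, by a difference of 0.16 ± 0.10 (SE), or 1.12-fold, with an unadjusted p of 0.155 in limma. Without moderation, which borrows the spread of other genes, that p was 0.0298. Cfl2, the muscle-type cofilin, read 10.72, 10.03 and 8.77 in wild type and 10.03, 9.77 and 10.04 in Chrm1-/-. Its wild type arrays spread over 1.95 units around the Chrm1-/- ones, and the difference of 0.11 ± 0.47 (SE) was the least precise of all members. Dstn, destrin, the remaining cofilin relative, differed by 0.02 ± 0.20 (SE).

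The tested monomer-binding genes had differences of at most 0.12. Pfn1, profilin, which loads monomers onto growing ends, had a mean of 11.24 in both genotypes, with SDs of 0.08 and 0.09 (n = 3). Tmsb4x, thymosin beta-4, which sequesters monomers, read 10.93, 10.82 and 10.91 in wild type and 10.90, 10.90 and 10.88 in Chrm1-/-, a difference of 0.01 ± 0.10 (SE). The related Tmsb10 differed by 0.02 ± 0.13 (SE). Cap1, cyclase-associated protein, which recycles monomers from cofilin, differed by 0.12 ± 0.11 (SE). Pfn2, a further profilin, lay below the filter, with signals from 5.59 to 6.84.

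Coronins, which bind filaments and act on cofilin and Arp2/3, showed no common direction. Coro1a, the blood cell coronin, differed by 0.02 ± 0.19 (SE) and Coro1c by -0.01 ± 0.10 (SE). Coro1b read 8.72, 8.74 and 9.19 in wild type and 9.68, 8.59 and 9.04 in Chrm1-/-. Its difference of 0.22 ± 0.30 (SE) came with a high Chrm1-/- replicate 1 and was -0.07 without that array. Gsn, gelsolin, which severs and caps filaments in response to calcium, read 7.06, 7.02 and 7.22 in wild type and 7.02, 7.05 and 6.87 in Chrm1-/-, a difference of -0.12 ± 0.11 (SE).

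The capping protein, a dimer that closes the growing end, had differences of 0.02 for Capza1, 0.04 for Capza2 and 0.06 for Capzb. Capzb, the beta subunit that pairs with either alpha subunit, read 10.25, 10.40 and 10.42 in wild type and 10.38, 10.38 and 10.50 in Chrm1-/-. The groups overlapped for each of the 3 genes, and each interval lay within 1.5-fold.

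Elongation factors, which keep the growing end open, had mixed directions. Diaph1, the formin mDia1, read 9.70, 9.70 and 9.77 in wild type and 9.34, 9.67 and 9.67 in Chrm1-/-. The groups did not overlap, by a margin of 0.03 between the nearest arrays, and the difference of -0.16 ± 0.13 (SE) was -0.05 without Chrm1-/- replicate 1. Vasp read 7.35, 7.34 and 7.46 in wild type and 7.21, 7.79 and 7.63 in Chrm1-/-, a difference of 0.16 ± 0.17 (SE). Without its lowest array, Chrm1-/- replicate 1, Vasp had a difference of 0.33 and an unadjusted p of 0.04 in limma, and without its highest, Chrm1-/- replicate 2, it had 0.04 and 0.835. Evl, a relative of Vasp, read 7.82, 7.82 and 8.25 in wild type and 7.94, 7.71 and 7.67 in Chrm1-/-. Its difference of -0.19 ± 0.16 (SE) was -0.05 without the high wild type replicate 3. Enah, the third of this family, lay below the filter, from 5.65 to 7.23.

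Myosin II, the motor that contracts filaments, included the member with the largest difference. Myl6, the essential light chain of non-muscle myosin, read 9.10, 8.25 and 9.54 in wild type and 7.38, 7.81 and 8.71 in Chrm1-/-. The groups overlapped, since Chrm1-/- replicate 3 lay above wild type replicate 2, and the spread was wide in both. The difference of -0.997 ± 0.448 (SE), or 1.995-fold, had an interval from -2.08 to 0.09 and an unadjusted p of 0.0662 in limma. Leaving out 1 array at a time moved it between -1.37 and -0.70. The unadjusted p in limma was 0.0205 without Chrm1-/- replicate 3 and 0.0229 without wild type replicate 2, the 2 arrays by which the groups overlapped. Without any one of the other arrays it ran from 0.153 to 0.198.

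The other myosin genes had smaller differences. Myl12a, a regulatory light chain, read 12.35, 12.39 and 12.47 in wild type and 12.37, 12.37 and 12.39 in Chrm1-/-, a difference of -0.03 ± 0.10 (SE). Myl12b, its near-identical partner, read 10.30, 10.29 and 10.22 in wild type and 10.33, 10.46 and 10.36 in Chrm1-/-. Its 3 Chrm1-/- arrays lay above the wild type ones by a difference of 0.11 ± 0.10 (SE), or 1.08-fold, with an unadjusted p of 0.299 in limma. Such close copies may share probes, so the signals of the pair are uncertain. Myh9, the heavy chain myosin IIA, read 9.22, 9.24 and 9.21 in wild type and 9.69, 8.97 and 9.34 in Chrm1-/-, a difference of 0.11 ± 0.19 (SE). Myh10, the heavy chain myosin IIB, read 7.06, 7.12 and 6.70 in wild type and 7.52, 7.12 and 7.21 in Chrm1-/-. The groups touched at 7.12, and the difference was 0.32 ± 0.17 (SE), with an unadjusted p of 0.106. Without wild type replicate 3, the lowest array, it was 0.19.

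Of the proteins that tie filaments to the membrane, Ezr, ezrin, read 8.20, 8.53 and 9.28 in wild type and 8.70, 8.70 and 8.54 in Chrm1-/-. The wild type arrays lay on both sides of the others, and the difference was -0.02 ± 0.28 (SE). Its relatives were tighter. Msn, moesin, read 9.79, 9.88 and 9.85 in wild type and 9.76, 9.92 and 9.76 in Chrm1-/-, a difference of -0.03 ± 0.10 (SE). Rdx, radixin, read 10.80, 10.90 and 10.86 in wild type and 10.90, 10.85 and 11.00 in Chrm1-/-, a difference of 0.06 ± 0.10 (SE).

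Crosslinkers and the proteins that join filaments to integrins had 3 genes higher and 4 lower, with a median of -0.01. Lcp1, L-plastin, the filament bundler of blood cells, read between 11.65 and 11.71 on all 6 arrays, a difference of -0.01 ± 0.10 (SE). Actn1, alpha-actinin-1, read 7.61, 7.73 and 7.65 in wild type and 8.12, 7.98 and 7.66 in Chrm1-/-, a difference of 0.26 ± 0.15 (SE). Chrm1-/- replicate 3 lay among the wild type arrays, and without it the difference was 0.39 with an unadjusted p of 0.023 in limma. Without Chrm1-/- replicate 1 the difference was 0.16, with a p of 0.321. Its relative Actn4 differed by 0.05 ± 0.14 (SE).

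Vcl, vinculin, which reinforces adhesions under tension, read 8.74, 8.82 and 8.24 in wild type and 8.37, 8.64 and 8.01 in Chrm1-/-. The groups overlapped, and the difference of -0.26 ± 0.23 (SE) ranged from -0.44 to -0.10 on leaving out 1 array. Tln1, talin, which links integrins to actin, differed by -0.08 ± 0.12 (SE), Flna, filamin A, by -0.17 ± 0.16 (SE), and Zyx, zyxin, by 0.10 ± 0.27 (SE).

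The single arrays behind the widest intervals were not the same for all members. On each array the median member lay within 0.03 of its own median over the 6 arrays. Wild type replicate 3 had 9 members more than 0.3 from their median, 18.8% against 24% of all genes tested, and Chrm1-/- replicate 1 had 8, or 16.7% against 22.3%. On the other arrays 3 to 6 members lay that far out, or 6.25 to 12.5%, against 17.6 to 21.4% of all genes tested. The members' share was thus the lower on every array, but members were not compared with genes of like signal. Wild type replicate 3 held the highest values of Arpc5l and Myl6 and the lowest of Cfl2, and wild type replicate 1 held the highest values of Brk1 and Cfl2.

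**Figure D3:**
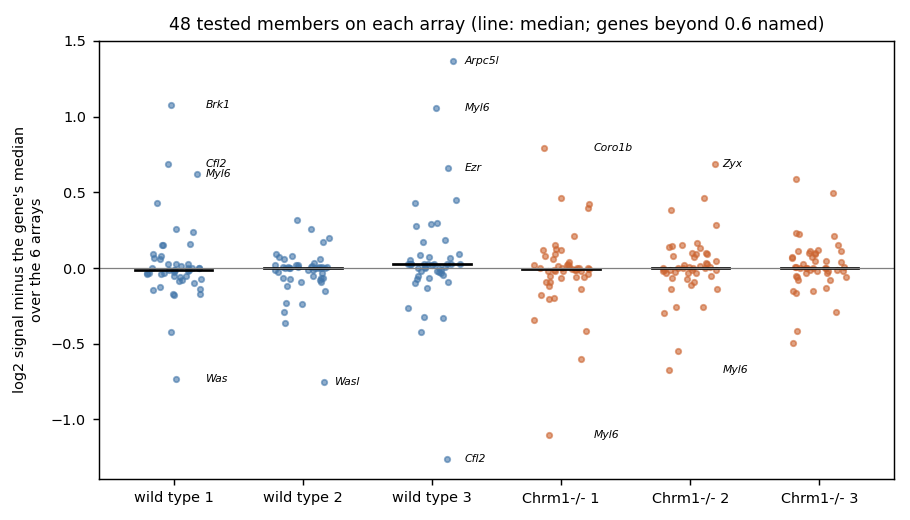
Log2 signal of the 48 tested members on each array, less each gene's median over the 6 arrays (points), with the median over members (line); members beyond 0.6 are named. The medians stay within 0.03 of 0 on every array, and Arpc5l, Brk1, Cfl2 and Myl6 make the largest excursions.

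Upstream of the machinery, 61 of 64 listed regulators and further actin binders had a value and 52 were tested. In limma 0 passed the adjusted threshold and 0 had an unadjusted p under 0.05, against 2.99% of all genes tested. Without moderation 2 did, Arhgef6 and Rhob, against 2.28% of all genes. Of the 52, 22 were higher and 30 lower in Chrm1-/-, with a median of -0.02. The GTPases that drive Arp2/3 had differences of -0.02 ± 0.10 (SE) for Cdc42, 0.07 ± 0.10 (SE) for Rac1 and 0.20 ± 0.17 (SE) for Rac2, the form of blood cells. The groups did not overlap for 4 regulators, or 7.69% against 5.79% of all genes. Of all genes 2.81% lay higher in Chrm1-/- without overlap and 2.97% lower, and each of the 4 regulators lay higher. These were Rac1, Rhob, the exchange factor gene Arhgef6 and the adducin gene Add1; Rac1, Arhgef6 and Add1 are named after their values were seen.

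The regulators of smallest p were taken 2 in each direction, Rhob and Cttn higher in Chrm1-/- and Cotl1 and Ssh1 lower. Rhob, a short-lived small GTPase, read 7.57, 7.38 and 7.62 in wild type and 7.82, 7.70 and 7.76 in Chrm1-/-, a difference of 0.24 ± 0.11 (SE). Cttn, cortactin, which holds Arp2/3 branches in place, read 7.24, 7.21 and 7.29 in wild type and 7.71, 7.27 and 7.79 in Chrm1-/-. Its difference was 0.34 ± 0.16 (SE), and Chrm1-/- replicate 2 lay within the wild type range. Without that array, the one by which the groups overlapped, the difference was 0.50 with an unadjusted p of 0.00665 in limma. Without Chrm1-/- replicate 3 it was 0.24, with a p of 0.205. Without any one of the other arrays the unadjusted p in limma ran from 0.113 to 0.184. Cotl1, a coactosin that binds filaments, read 7.78, 7.48 and 7.80 in wild type and 7.06, 7.67 and 7.49 in Chrm1-/-. Its difference of -0.28 ± 0.19 (SE) was -0.11 without Chrm1-/- replicate 1 and -0.41 without Chrm1-/- replicate 2. Ssh1, the phosphatase that activates cofilin, read 9.20, 7.47 and 7.73 in wild type and 7.53, 7.44 and 7.53 in Chrm1-/-. Wild type replicate 1 stood alone, and the difference of -0.63 ± 0.44 (SE) was -0.10 without it. In that order, the unadjusted p of these 4 genes in limma was 0.0799, 0.075, 0.192 and 0.202. Srf, which encodes the factor that binds the CArG box, differed by 0.02 ± 0.31 (SE), with Chrm1-/- arrays at 7.11, 7.57 and 8.38, and its coactivator genes Mrtfa and Mrtfb by 0.10 ± 0.10 (SE) and -0.04 ± 0.14 (SE).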

How the data were processed

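HSC RNA from 3 wild type and 3 Chrm1-/- samples, grouped by the genotype in the labels' titles, was amplified with a NuGEN kit, hybridised to Affymetrix mouse gene ST arrays and processed in the maker's analysis software, per the series design text. No source used here states the software's version, its summarization or its normalization. The deposited values, 1 for each cluster and array, are read as log2 signals because they range from 3.02 to 13.67; no scale is named. Array medians were nearly equal, so no further normalization was applied. Whether replicates are separate mice is not stated, so the p-values cover the spread between samples that may be technical repeats, and the number of arrays limits the precision.

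Of 41345 clusters, 23521 had 1 symbol in the platform annotation, 1814 several and 16010 none there. Each gene was taken from its cluster of highest mean signal, giving 22180 genes; identifiers of 21994 matched the RefSeq table of GRCm38.p6. Genes with a mean at or above 6.77, the median, were tested, 11094 in number.

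Groups were compared in limma 3.58.1 (lmFit, eBayes, two-sided) in R 4.3.3, with Benjamini-Hochberg adjustment over all genes tested and a threshold of 0.05; the test was tested on simulated data. Tables and plots used Python 3.11.15, pandas 2.3.3, numpy 2.4.6 and matplotlib 3.10.9. Members, regulators and markers were chosen with earlier results of these data known. Array values are given for the 2 actins, for members with an unadjusted p under 0.05 (none were found) or groups that do not overlap, for the largest difference in each direction per complex, and for the 2 regulators of smallest p in each direction. Further members with array values (Arpc2, Actr3, Abi1, Wasl, Cfl2, Tmsb4x, Myl12a, Myh9, Ezr and Lcp1) were chosen after their values were seen. Alternatives covered the filter, normalization, the cluster used, moderation, weights for arrays, a replicate block and leaving out each array.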

Additional observations from a re-analysis of the deposited data

How the results depend on the processing

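The count of members past the adjusted threshold in limma was 0 under all 15 alternatives, and also at an adjusted p of 0.10. The count of members at an unadjusted p under 0.05 in limma, 0 as reported, was 1 without moderation (Cfl1; 2.28% of all genes) and 1 with the replicate block (Myl6; 3.57%). It was 0 to 2 on leaving out 1 array (Vasp, Actn1 or Myl6, beside 3.02 to 4.71% of all genes). At p under 0.10 it was 2, with no share of all genes at hand to set beside it. For regulators the count at an unadjusted p under 0.05 in limma was 1 with array weights (Rhob, beside 4% of all genes). It was 2 without moderation (Arhgef6 and Rhob, beside 2.28%) and 0 to 1 on leaving out 1 array (Cttn, Wdr1 or Diaph3, beside 3.02 to 4.71%). Same-numbered samples did not deviate together (correlations of -0.03, 0.01 and -0.01), so the block rests on a shared number only. Groups that do not overlap numbered 7 to 9 on leaving out 1 array, when smaller groups separate more easily, as did 13.1 to 17.8% of all genes. The members' median then ran from -0.007 to 0.018. By complex it ran from -0.04 to 0.099 for WASP and WAVE, -0.023 to 0.118 for myosin II and -0.052 to 0.067 for membrane linkers. With a gene's clusters averaged, the median was 0.003 for the actins and 0.063 for membrane linkers, and the differences of Actg1 (-0.084) and Msn (0.083) reversed. With no filter, which adds Enah, elongation had a median of -0.002. With the filter at the 75th percentile, WASP and WAVE had -0.013 and myosin II 0.042. On leaving out 1 array, the difference ran from -0.068 to 0.477 for Coro1b, from -0.073 to 0.282 for Arpc1a and from -0.652 to 0.213 for Arpc5l. Of 351 values of the 24 named genes under the alternatives, 346 did not reverse. Many of these could not reverse. The filter, moderation and replicate block leave a gene's difference as it was, as does averaging for a gene with 1 cluster. A difference of 0 was also counted as not reversed. The cause of the shifts under the alternatives was not tested, apart from the genes or arrays each alternative leaves out.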

Other observations

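Several of the genes had further clusters. Arpc1b, the Arp2/3 subunit that stands in for Arpc1a in blood cells, was named only in clusters with several symbols. The cluster shared with Gm5637 read 8.96, 9.52 and 9.95 in wild type and 9.41, 9.09 and 9.32 in Chrm1-/-, a difference of -0.20. The cluster shared with Pdap1 and Gm5637 read 6.83, 6.85 and 6.84 in wild type and 7.42, 7.39 and 6.87 in Chrm1-/-, a difference of 0.39. The 2 clusters pointed in opposite directions, and neither can be assigned to Arpc1b alone.

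Actg1 had 6 clusters with its symbol alone, more than any other of these genes, with differences from -0.34 to 0.02. One pair of them held the same 6 values, 8.91, 9.26 and 8.99 in wild type and 8.96, 9.06 and 8.99 in Chrm1-/-, and so is not independent. The second clusters of Arpc5, Coro1c, Capza1, Myl12a and Msn had differences of -0.11, -0.25, -0.13, -0.11 and 0.19, beside -0.09, -0.01, 0.02, -0.03 and -0.03 in the clusters used.

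Some genes held 1 value on several arrays. Of the 48 tested members 5, or 10.4%, had the same value to 2 decimals on 3 or more arrays, as did 9.74% of all genes tested. The widest case among the members was Actg1, at 11.98 on 5 arrays.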
